A study of Mus musculus with 12 samples.

Results

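Polyadenylated RNA from the clustered histone genes of the mouse was examined in male and female mouse embryonic fibroblasts (MEFs) with and without the Sirt3 knockout label. The 67 genes described here are all the protein-coding genes whose symbol begins with Hist1h, Hist2h, Hist3h or Hist4h in a table of 34866 genes. Membership was set by the symbol, though this set of genes was chosen with earlier results of these data known. The Hist1 cluster on chromosome 13 held 54 of them, the Hist2 cluster on chromosome 3 held 10, the Hist3 cluster on chromosome 11 held 2, and Hist4h4 on chromosome 6 stood alone. By type there were 6 genes of the linker histone H1, 18 of H2A, 18 of H2B, 12 of H3 and 13 of H4, and 3 pseudogenes with such symbols were left out. The 12 libraries comprised 3 of WT and 3 of KO cells of each sex. The MEFs came from individual embryos at day 13 of 129S1/SvImJ WT and of Sirt3 KO mice. All of them, WT included, were immortalized with a plasmid carrying the SV40 T antigen, and RNA was taken at passage 6, 48 h after seeding. The summed polyadenylated RNA of the 67 genes was lower in KO than in WT cells, by 25.2% in males and by 38.8% in females, and Hist1h1c, Hist1h2bc, Hist1h2bq and Hist1h4i fell in both sexes. Without the 12 most highly expressed genes the sum was 13.6% lower in male KO and 28.5% lower in female KO. The comparisons ask how the loss of SIRT3, a mitochondrial deacetylase, relates to expression in each sex. Per the methods of the study, the cells of each genotype and sex were seeded into wells in triplicate. The number of independent lines per group is not stated in the sources used here, so p-values measure the spread between these replicate cultures. If a group is a single line, then its line cannot be told apart from its genotype and sex.

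Histones H2A, H2B, H3 and H4 form the core of the nucleosome around which DNA is wound, and H1 binds the linker DNA between nucleosomes. Most of their mRNA comes from clustered genes that are transcribed in S phase, when new DNA must be packaged. These mRNAs are unusual in that they end in a short stem-loop, bound by the protein SLBP, in place of a poly(A) tail, and they are degraded when replication ends. Some clustered genes also give polyadenylated mRNAs, through a poly(A) signal beyond the stem-loop or through splicing to a second exon. The libraries were made from poly(A)-enriched RNA, so the values do not describe the total histone mRNA. Throughout, polyadenylated RNA means the RNA recovered in these libraries, which may hold some RNA carried over without a tail. None of 15 listed RNAs that lack a poly(A) tail, among them Rmrp, Rpph1 and Terc, is in the table, so the share of tailless RNA in each library could not be measured here.

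The annotated 3′ ends of the genes at the centre of the results are shown first, because poly(A) selection acts on that end. Of the 67 genes, 42 have the histone stem-loop after the stop codon of an annotated transcript (GENCODE M21, GRCm38), from 21 to 58 bases beyond it with a median of 31. Here and below, stem-loop means a match to a fixed pattern of 16 bases, so variants outside the pattern are missed. The models of 15 of the 67 genes have at most 5 bases after the stop codon and could not show it. Across all 21901 protein-coding genes 47 have a match, and the other 5 are H2afx, H2bfm, 5031439G07Rik, Scrt1 and Thsd4. The most frequent form of the stem-loop was that of Hist1h1c, found in 26 genes, while Hist1h4i shared a rarer form only with Hist2h4. In the first 3 lines below, the capitals mark the 16 bases of the stem-loop. In the last 2 lines they mark the first bases of exon 2 after a splice junction.
Hist1h1c, stem-loop at chr13:23739512-23739527, plus strand: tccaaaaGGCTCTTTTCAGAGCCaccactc
Hist1h4i, stem-loop at chr13:22040966-22040981, minus strand: acttaaaGGCCCTTTTTAGGGCCaccacaa
Hist3h2a, stem-loop at chr11:58955172-58955187, plus strand: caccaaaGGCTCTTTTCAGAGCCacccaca
Hist1h2bc, exon 1 ends at chr13:23684621, exon 2 starts at chr13:23692176, plus strand: aagtgatcctgccaaGAGGAGCAGACCTGA
Hist1h2bq, exon 1 ends at chr13:21809795, exon 2 starts at chr13:21808127, minus strand: gtacaccagctccaaTTTTTCAAGACAAAA

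The models of Hist1h1c, Hist1h4i and Hist3h2a run on past the stem-loop for 840, 330 and 1643 bases. Exon 1 of Hist1h2bc ends 9 bases after the stop codon, and the model then joins an exon 7554 bases away without having reached a stem-loop. The Hist1h2bq model leaves exon 1 before the usual stop codon and ends its coding part in exon 2, and Hist1h2br, a near copy on the other strand, has the same 30 bases at its junction. In all, 5 genes have a spliced model, 20 have one that runs over 100 bases past the stem-loop, and 20 end at or near the stem-loop. Another 19 have no stem-loop in their model and end at most 95 bases after the stop codon, and 3 fit none of these classes. A poly(A) signal (AATAAA or ATTAAA, on the transcript's strand) lay in the last 50 bases of a model for 77.9% of all protein-coding genes. It did so for 4 of the 5 spliced genes, 9 of the 20 long ones, 1 of the 20 that end near the stem-loop and 0 of the 19 without one.

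**Figure D1:**
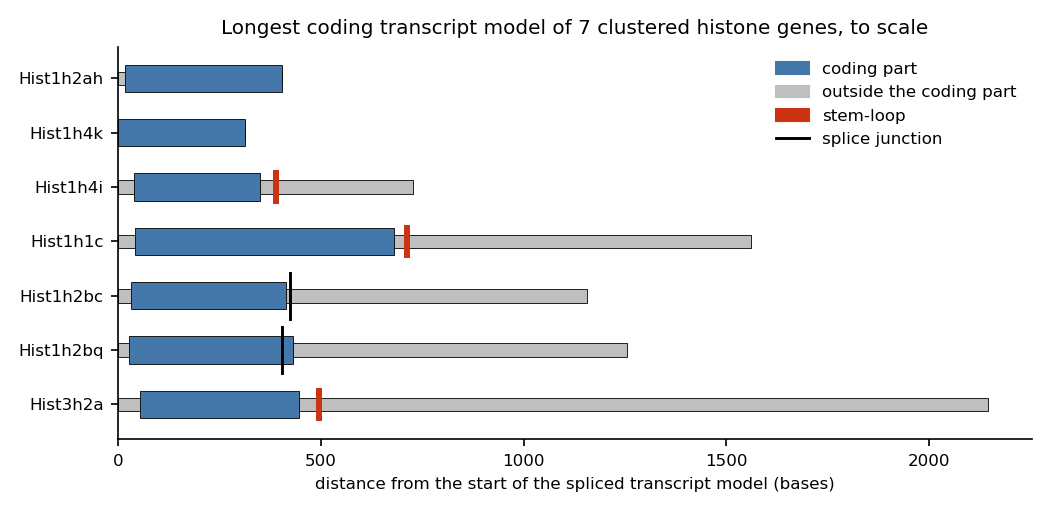
Longest coding transcript model of 7 clustered histone genes, drawn to scale in bases from the start of the spliced model. Wide blue bars are the coding part, thin grey bars the rest, red the stem-loop and black lines the splice junction. The models of Hist1h4i, Hist1h1c and Hist3h2a continue beyond the stem-loop, while those of Hist1h2ah and Hist1h4k stop at the end of the coding part.

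Promoters are shown for the genes that passed the test in both sexes and had an entry in the RefSeq promoter table (GRCm38.p6), which matched 62 of the 67 genes. Each line gives the 250 bases before the start, 5′ to 3′ on the gene's strand, with CCAAT or its complement ATTGG and TATAAA in capitals.
Hist1h1c, chr13:23738557-23738806, plus strand: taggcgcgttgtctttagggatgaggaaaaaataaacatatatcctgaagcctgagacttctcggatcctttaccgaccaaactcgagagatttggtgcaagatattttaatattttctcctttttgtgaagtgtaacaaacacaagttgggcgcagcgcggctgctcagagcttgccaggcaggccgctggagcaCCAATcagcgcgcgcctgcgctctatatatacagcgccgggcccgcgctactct
Hist1h2bq, chr13:21810200-21810449, minus strand: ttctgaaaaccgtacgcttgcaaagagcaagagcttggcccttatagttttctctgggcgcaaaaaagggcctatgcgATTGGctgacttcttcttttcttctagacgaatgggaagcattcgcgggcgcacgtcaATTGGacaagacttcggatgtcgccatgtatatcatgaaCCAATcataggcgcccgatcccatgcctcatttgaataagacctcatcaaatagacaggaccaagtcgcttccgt
Hist1h4i, chr13:22041363-22041612, minus strand: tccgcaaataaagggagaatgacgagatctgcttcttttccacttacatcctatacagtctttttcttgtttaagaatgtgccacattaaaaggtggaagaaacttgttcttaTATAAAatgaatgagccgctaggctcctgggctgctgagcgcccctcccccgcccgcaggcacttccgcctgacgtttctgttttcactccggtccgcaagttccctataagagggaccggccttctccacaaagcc

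In windows of 300 bases, from 250 before to 50 after the start and counting both strands, CCAAT was found in 85.5% of the 62 promoters and in 37.9% of all 27025. It was in each matched promoter of an H1, H2A, H2B or H3 gene and in 3 of 12 of H4 genes. TATAAA was found in 56.5% against 14.2%. The octamer ATTTGCAT, which is known from H2B promoters, was found in 21% against 1.75%, in 7 H2A and 6 H2B genes. These matches are a description of the letters in the windows and no measurement of binding.

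Polyadenylated RNA of the clustered genes was scarce. Expression is given in TPM, a level scaled for transcript length and library size, and the depth in reads is unknown. Over the 12 libraries the 67 genes summed to a mean of 218 TPM, against 2997 to 3420 TPM over the libraries for 11 histone genes outside the clusters, such as H2afz and H3f3b, whose mRNAs are polyadenylated. Only 4 genes had a mean of 10 TPM or more, namely Hist1h1c (31), Hist1h2ah (19.2), Hist1h2bc (19.2) and Hist1h4i (12.6), and they held 37.6% of the sum. The 12 highest genes held 61.8%, and besides these 4 they were Hist1h3i, Hist1h2bq, Hist2h2bb, Hist1h4k, Hist1h2bk, Hist1h2ap, Hist3h2a and Hist1h3g. Tests were made on the 37 genes that averaged 1 TPM or more. The other 30 lay between 0 and 0.962 TPM, and Hist1h4m was at 0 in every library.

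Near-identical copies share reads, so the level of a single gene can depend on how the quantification divided them. Of 31-base words in the transcripts of each gene, 26 genes had at least 50% found in no other gene, 14 had under 10% and 5 had none. The share was 88.6% for Hist1h1c, 66.5% for Hist1h2bc, 64.4% for Hist1h4i and 67.9% for Hist3h2a. It was 7.47% for Hist1h2ah, 6.82% for Hist1h3i and 1.74% for Hist1h2bq, whose words were shared to 98.3% with Hist1h2br. Besides, 24 genes overlap another annotated gene, as Hist3h2a does with Trim17 on the same strand, and use of strand in the counting is not stated in the sources used here. Levels and changes of such genes are uncertain one by one. Sums over copies are given below for Hist1h2bq, Hist1h3i and Hist2h2aa1 with their near copies, and not for others such as Hist1h2ah.

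The checks of the labels follow. Sirt3 itself was not lower in the libraries labelled KO, at 8.88 to 11.0 TPM in male KO against 6.59 to 9.07 in male WT and at 7.57 to 9.06 in female KO against 7.4 to 8.69 in female WT, and KO below means so labelled. Values summed per gene cannot tell an intact from a truncated mRNA. The study also lists SIRT3 protein in a representative immunoblot of these MEFs, which was not examined here. Ddx3y, Eif2s3y and Kdm5d, which are Y-linked, matched the labels of sex: Ddx3y was at 31.7 to 36.6 TPM in male and at 0.033 to 0.218 in female libraries. Of 8 fibroblast markers all were above 1 TPM. In KO 4 of them rose in males and 6 in females, where 10.7% and 5.63% of all genes were called higher. Pdgfrb rose by 1.06 and 0.84 on the log2 scale (limma adjusted p = 4.33e-05 and 5.39e-05). Thy1 (0.75 and 0.80), Col1a1 (0.60 in both) and Col3a1 (0.40 and 0.38) also rose in both sexes, and Col1a2 (0.48) and Pdgfra (0.79) in females. The epithelial markers Epcam and Krt18 fell in both sexes, and Krt18 was at 6.52 to 8.48 TPM in male WT against 0.203 to 0.591 in male KO. Cdh1 and Krt8, the others on that list, averaged under 1 TPM and were not tested. Sox2 fell in male KO by 2.88 and was 1.19 higher in female KO, and Tubb3 was 0.34 higher in male KO. Of these marker calls, that of Epcam in females held in 6 of 13 alternatives, that of Tubb3 in 7 of 14 and that of Pdgfra in 10 of 14, and the others in all run for them. The sum of the endothelial markers stayed under 0.766 TPM, that of the germ cell markers under 0.842 and that of the muscle markers under 0.124, and the 3 blood markers summed to 3.98 to 10 TPM. In bulk samples fewer cells of a type and less RNA per cell cannot be told apart, and the part of these differences in the results below was not tested.

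The summed polyadenylated RNA of the 67 clustered genes was lower in KO than in WT MEFs of both sexes. It was 252, 258 and 270 TPM in the male WT libraries and 202, 181 and 200 TPM in the male KO libraries. In females it was 246, 261 and 269 TPM in WT and 145, 171 and 159 TPM in KO. The KO libraries lay below every WT library in each sex, and the sum was 25.2% lower in males (log2 ratio of the means -0.42) and 38.8% lower in females (-0.71). The WT sums of the sexes overlapped, while the male KO libraries all lay above the female KO libraries (log2 ratio 0.30). Without the 12 highest genes, the sum of the other 55 had a KO to WT log2 ratio of -0.21 in males and -0.48 in females. It did not overlap in either sex, though narrowly in males, at 77.3 to 85.8 TPM in KO and 86.4 to 102 TPM in WT. These sums are descriptions and carry no test. Over the same libraries the 11 histone genes outside the clusters summed to 3340 ± 49.8 TPM for WT and 3356 ± 65.1 for KO in males, and to 3118 ± 33.2 for WT and 3036 ± 41.8 for KO in females (SD, n = 3).

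The lower sums were seen in every histone type except H2A in males. The H1 genes summed to 48.3 ± 3.80 TPM in the male WT libraries and 28.7 ± 2.46 in the male KO ones, and to 43.5 ± 4.90 and 23.7 ± 2.07 in the female ones (SD, n = 3). The H2B genes, at 64.7 ± 4.07 and 40.4 ± 4.30 TPM in males, were 37.6% lower in KO, and in females 47.2% lower. In male KO the H4 genes were 38.4% lower and the H3 genes 21.7% lower, and in female KO they were 50.4% and 27.5% lower. For these 4 types no KO library reached the WT range of its sex. The H2A genes differed: their sum was 71.7, 64.0 and 72.8 TPM in male WT against 69.8, 68.7 and 75.6 TPM in male KO, which overlap, whereas in females it was 64.5, 71.9 and 85.2 TPM in WT and 44.4, 58.3 and 55.7 TPM in KO, with no overlap. Much of the female difference lay in Hist1h2ah, which averaged 25.9 TPM in female WT and 10.1 in female KO. The H2A sum without it is not given here, so the fall cannot be read as one of the whole type.

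**Figure D2:**
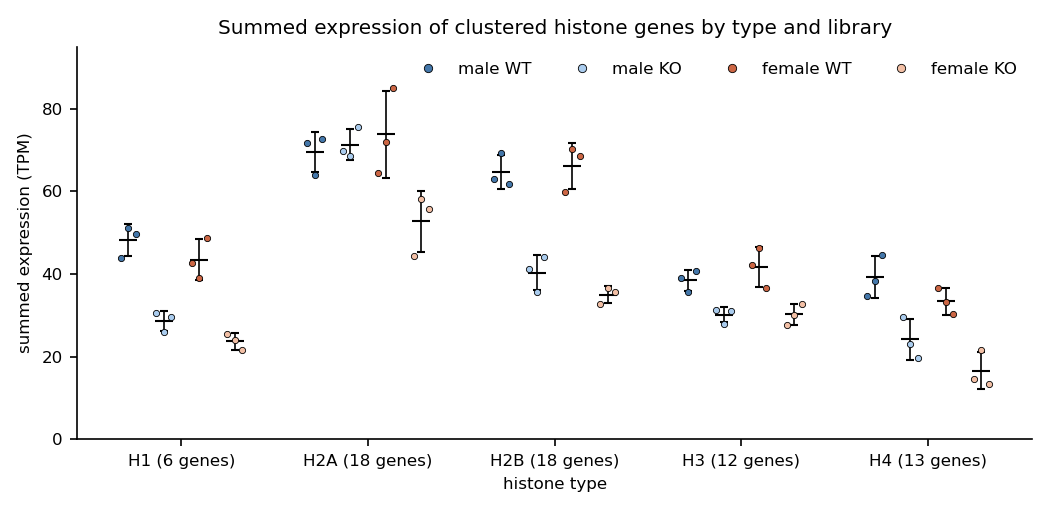
Summed TPM of the clustered histone genes of each type in each library. Points are libraries, horizontal ticks are group means and bars are 1 SD (n = 3). The KO libraries lie below the WT libraries of the same sex for H1, H2B, H3 and H4, and for H2A only in females, where WT averaged 73.9 TPM and KO 52.8 TPM. Of these female H2A means, Hist1h2ah held 25.9 TPM in WT and 10.1 TPM in KO.

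By cluster, the 54 Hist1 genes summed to 220 ± 11.4 TPM for WT and 166 ± 12.2 for KO in males, and to 225 ± 13.4 for WT and 127 ± 11.1 for KO in females (SD, n = 3). The 10 Hist2 genes were 34.7% lower in male KO without overlap. In females the Hist2 sums overlapped, at 26.3 ± 3.96 TPM in WT and 26.1 ± 3.65 in KO. Within Hist1 the 13 H2A genes were at 47.1 to 55.8 TPM in male WT against 56.1 to 58.4 TPM in male KO, so that here the KO libraries were the higher, by a log2 ratio of 0.14. In females the same 13 genes, Hist1h2ah among them, had a log2 ratio of -0.56. The lone Hist4h4, an H4 gene, was at 0.113 to 0.420 TPM in all libraries.

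Grouped by the annotated 3′ end, the 5 genes with a spliced model showed the largest ratio of the 4 named classes. They summed to 38.3, 37.3 and 38.0 TPM in male WT against 21.4, 20.2 and 21.2 TPM in male KO, and to 40.6, 39.1 and 45.7 TPM in female WT and 14.2, 13.6 and 16.8 TPM in female KO. The log2 ratio was -0.86 in males and -1.49 in females. Most of this sum lay in Hist1h2bc and Hist1h2bq, which averaged 22.9 and 11.6 of the 37.9 TPM in male WT and are described below. Values per gene do not tell spliced from unspliced mRNA, and Hist1h2bq also has a coding model of 1 exon. The 20 genes whose model runs past the stem-loop were at -0.54 and -0.81, also without overlap in either sex. Most of this sum, too, lay in called genes, as Hist1h1c and Hist1h4i averaged 39.6 and 18.6 of the 92.4 TPM in male WT. The ratio of this class without them is not given here. The 20 genes whose model ends near the stem-loop were at -0.15 and -0.30, and their KO and WT libraries overlapped in both sexes. The 19 short models without a stem-loop were at -0.30 and -0.57, with no overlap. These classes also differ in how unique their sequence is, and the 26 genes with at least 50% unique words were at -0.63 and -0.90 against -0.26 and -0.57 for the other 41. Whether the 3′ end or the sharing of reads goes with the ratio was not tested.

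Gene by gene, between male KO and male WT 9 of the 37 tested clustered genes fell and 1 rose (limma on log2(TPM + 1), Benjamini-Hochberg adjusted p under 0.05). The 10 calls are 27.0% of the 37, against 21.6% of all 12504 genes tested, and the 9 that fell are 24.3% against 10.9%. The gene that rose stands beside 10.7% of all genes called higher. Between female KO and female WT 7 fell and 0 rose, or 18.9% against 11.5% of all genes called and 5.84% of all genes called lower (5.63% were called higher). At an unadjusted p under 0.05, 13 passed in males and 14 in females. The share of all genes at that unadjusted threshold is not given here, so these counts cannot be read as particular to the 37. The median difference of the 37 genes was -0.23 in males and -0.31 in females on the log2 scale, beside -0.015 and -0.023 over all genes. KO libraries lay below all WT libraries for 11 of the 37 in males (21.2% of all genes) and for 12 in females (18.7% of all genes), and above them for 1 in males and 0 in females (18.8% and 14.9%). In the male comparison 3 of 4 H1 genes, 2 of 8 H2B, 2 of 9 H3 and 2 of 4 H4 fell, as did 0 of 12 H2A, where 1 rose. In the female comparison 1 H1, 1 H2A, 2 H2B, 1 H3 and 2 H4 genes fell. All of these calls were in the Hist1 cluster, which held 30 of the 37.

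The genes called lower in both sexes were 4, namely Hist1h1c, Hist1h2bc, Hist1h2bq and Hist1h4i, and the first of them carries the most polyadenylated RNA. Hist1h1c (ENSMUSG00000036181.2, chr13:23738808-23740367), which encodes a linker histone, was at 36.1, 42.8 and 39.9 TPM in male WT against 29.0, 24.0 and 27.2 in male KO, 36.1, 34.3 and 42.2 in female WT and 22.2, 19.2 and 19.2 in female KO. Every KO library lay below every WT library. In males it fell by 0.55 on the log2(TPM + 1) scale (standard error 0.093, limma adjusted p = 0.00685). In female KO it fell by 0.86 (standard error 0.097, limma adjusted p = 0.00287). Both calls held in all 14 alternatives tried for each.

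Hist1h2bc (ENSMUSG00000018102.5, chr13:23684199-23692908), an H2B gene with the spliced model shown above, was at 25.8, 19.8 and 23.3 TPM in male WT against 14.5, 16.3 and 17.0 in male KO, 24.0, 24.0 and 29.0 in female WT and 10.9, 12.2 and 13.1 in female KO. Here too each KO library lay below all WT libraries. In males it fell by 0.49 (standard error 0.11, limma adjusted p = 0.0212). In female KO it fell by 1.03 (standard error 0.11, limma adjusted p = 0.00199). The female call held in all 14 alternatives. The male call was lost without male WT replicate 1 or 3, without male KO replicate 1 or 2 and with no filter on low values, with an adjusted p of at most 0.0731.

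Hist1h2bq (ENSMUSG00000069307.6, chr13:21806612-21810197), another H2B gene with a spliced model, had the largest female difference of all 37. It was at 10.5, 15.4 and 9.02 TPM in male WT against 5.93, 1.51 and 2.99 in male KO, 15.2, 11.3 and 15.4 in female WT and 1.09, 0.799 and 1.97 in female KO, with no overlap in either sex. In males it fell by 1.59 (standard error 0.37, limma adjusted p = 0.0228). In female KO it fell by 2.73 (standard error 0.22, limma adjusted p = 0.000731). Since nearly all of its sequence is shared with Hist1h2br, the sum of both was formed, and it was 70.7% lower in male KO and 90.1% lower in female KO. The male call held in 9 of 14 alternatives, and those that lost it included leaving out male WT replicate 1 or 2 or male KO replicate 3 and using no filter on low values, with an adjusted p of at most 0.104 over all of them.

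Hist1h4i (ENSMUSG00000060639.5, chr13:22040636-22041362), an H4 gene, was at 16.1, 20.9 and 18.8 TPM in male WT against 11.5, 8.10 and 8.90 in male KO, 17.8, 13.3 and 12.2 in female WT and 6.04, 9.60 and 7.83 in female KO. Every KO library again lay below every WT library. In males it fell by 0.91 (standard error 0.15, limma adjusted p = 0.00587). In female KO it fell by 0.81 (standard error 0.19, limma adjusted p = 0.042). The male call held in all 14 alternatives, but the female call was lost in 8 of 14, with an adjusted p of at most 0.132. These included leaving out any female library but KO replicate 2.

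**Figure D3:**
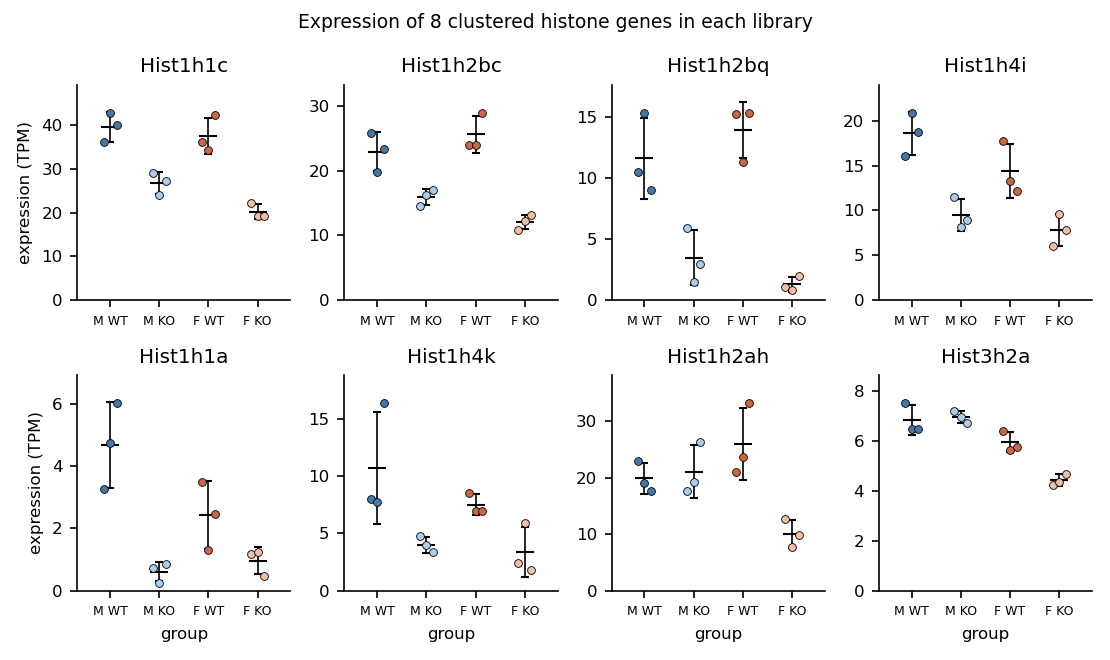
TPM of 8 clustered histone genes in each library, with M and F for male and female. Points are libraries, horizontal ticks are means and bars are 1 SD (n = 3), and each panel has its own axis from 0. Hist1h1c, Hist1h2bc, Hist1h2bq and Hist1h4i are lower in every KO library, while the KO libraries of Hist1h2ah and Hist3h2a lie below the WT libraries in females and overlap them in males.

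Called lower in males but not in females were 5 genes. Among these the largest difference was that of Hist1h1a, an H1 gene whose sequence is 99.7% unique, at 3.26, 4.74 and 6.01 TPM in male WT against 0.731, 0.254 and 0.844 in male KO. It fell by 1.81 (standard error 0.25, limma adjusted p = 0.00276). In females it was at 3.49, 1.31 and 2.45 TPM in WT and 1.17, 1.24 and 0.460 in KO, a difference of -0.78 that did not pass (limma adjusted p = 0.151). Hist1h1b, also H1, fell in males by 1.23, from 1.58 to 2.60 TPM in WT to 0.182 to 0.757 in KO (limma adjusted p = 0.0124). The calls of Hist1h1a and Hist1h1b in males held in all 13 alternatives.

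The H3 genes Hist1h3i and Hist1h3b and the H4 gene Hist1h4k made up the rest. Hist1h3i was at 10.3, 11.5 and 7.84 TPM in male WT against 5.30, 4.44 and 5.49 in male KO, and fell by 0.83 (limma adjusted p = 0.0101). Its near copy Hist1h3h, which shares 85.3% of its words, ranged over the libraries from 0 to 8.20 TPM, and the sum of both overlapped between male WT and KO, at 10.3 to 14.1 and 5.55 to 13.7 TPM. Hist1h4k was at 7.98, 7.76 and 16.4 TPM in male WT against 4.74, 3.97 and 3.33 in male KO, and fell by 1.16 (limma adjusted p = 0.0253), a call that held in 9 of 14 alternatives and was lost without any 1 of the male KO libraries and with no filter (adjusted p of at most 0.105 over all of them). In females Hist1h4k was at 8.55, 6.96 and 6.96 TPM in WT and 2.41, 5.91 and 1.79 in KO, a similar difference of -1.07 that did not pass (limma adjusted p = 0.088). Of the words of Hist1h4k 13.8% are its own and 73.0% are shared with Hist1h4a. Hist1h3b fell in males by 1.38 (limma adjusted p = 0.0346), from 2.98 to 4.27 TPM in WT to 0 to 1.48 in KO. It was as low in both female groups, where no library exceeded 1.13 TPM. The male call of Hist1h3b held in 5 of 13 alternatives (adjusted p of at most 0.123 over all of them). It was lost without any 1 of the male WT libraries, without male KO replicate 3, with no filter, with no trend and with a pseudocount of 0.1.

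The only clustered gene that rose was the H2A gene Hist1h2an, in males. It was at 0, 1.80 and 1.27 TPM in male WT against 7.06, 3.21 and 3.30 in male KO, higher by 1.51 (limma adjusted p = 0.0487). With 11.0% unique words and 81.5% shared with Hist1h2ah, it cannot be read apart from its copies, and the call held in 3 of 13 alternatives (adjusted p of at most 0.163 over all of them). It was lost when any male library but WT replicate 2 was left out, and also with no filter, no trend, a pseudocount of 0.1 and quantile normalization.

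Called lower in females but not in males were 3 genes. Hist1h2ah, the second highest of the 67 and an H2A gene, was at 20.9, 23.7 and 33.2 TPM in female WT and 12.7, 7.75 and 9.76 in female KO, and fell by 1.28 (standard error 0.21, limma adjusted p = 0.0134), a call that was lost with no filter (adjusted p = 0.0628) and held in the other 13 alternatives. In males it was at 23.0, 19.0 and 17.7 TPM in WT and 17.5, 19.2 and 26.3 in KO, which overlap. Only 7.47% of its words are its own and 88.0% are shared with Hist1h2ad, which was at 0 to 3.96 TPM. Hist1h3d, an H3 gene, fell by 1.09 (limma adjusted p = 0.0436) from 1.97 to 3.22 TPM in female WT to 0.299 to 1.26 in female KO, and Hist1h4h, an H4 gene, fell by 0.99 (limma adjusted p = 0.0486) from 5.76 to 6.83 TPM to 1.64 to 4.22. The Hist1h3d call held in 3 of 13 alternatives (adjusted p of at most 0.125) and that of Hist1h4h in 1 of 13 (at most 0.148). Both were lost when any female library but KO replicate 2 was left out, and also with no filter, no trend, a pseudocount of 0.1 and quantile normalization.

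Set side by side for both sexes, whose comparisons share no libraries, 19 of the 37 genes were below 0 in both comparisons and 6 above 0 in both. In males 62.2% of the 37 were below 0, against 52.5% of all genes, and in females 73.0% against 55.0%. How often all genes share a sign between the sexes is not given here. The shared signs therefore cannot be read as particular to the 37. Each of the 9 genes that fell in males was also below 0 in females, and 6 of the 7 that fell in females were below 0 in males, the exception being Hist1h2ah at 0.06. A call in one sex alone is not a difference between the sexes, which the interaction addresses.

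**Figure D4:**
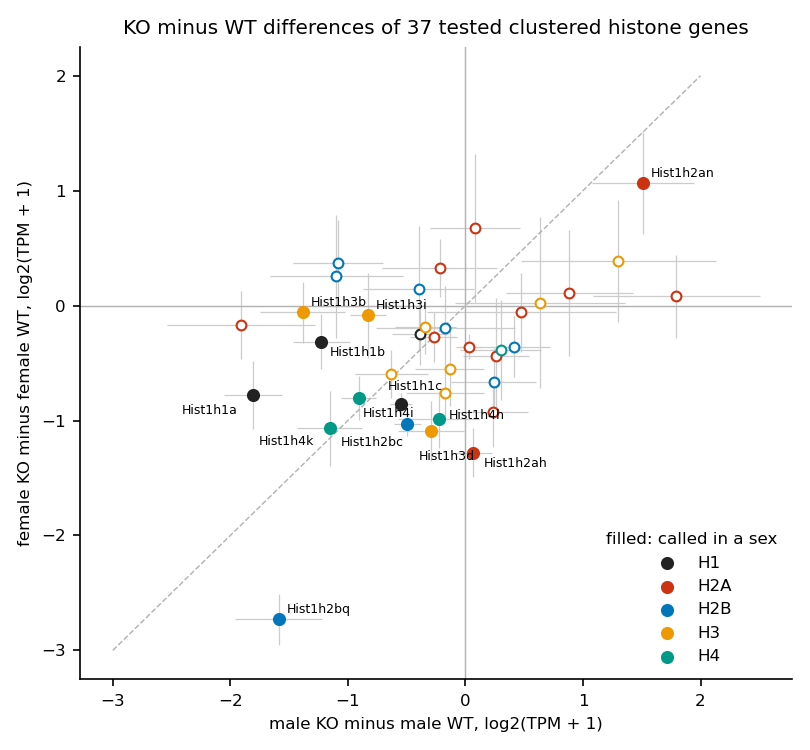
KO minus WT difference of the 37 tested clustered genes on the log2(TPM + 1) scale, males on the x axis and females on the y axis. Bars are standard errors, colours are histone types, filled points passed the test in at least 1 sex and the dashed line marks equal differences. Hist1h2bq lies lowest, at -1.59 and -2.73, and Hist1h2ah lies near 0 for males and at -1.28 for females.

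The sex by genotype interaction, the male difference minus the female difference, passed for 2 of the 37 genes, both with a positive value. Of all genes 13% passed, and 6.7% passed with a positive value. At an unadjusted p under 0.05, 10 members passed, and the share of all genes at that threshold is not given here. For Hist1h2ah the interaction was 1.35 (standard error 0.29, limma adjusted p = 0.00986), and this call held in all 19 alternatives, with an adjusted p of at most 0.0281. For Hist1h2bc it was 0.53 (standard error 0.16, limma adjusted p = 0.0497), so the fall was the larger in females. That call held in 6 of 19 alternatives and was lost when any library but male KO replicate 1, male WT replicate 1 or female KO replicate 3 was left out (adjusted p of at most 0.113). For the other genes called in only 1 sex, such as Hist1h1a, Hist1h1b and Hist1h3b, no difference between the sexes was shown by this test.

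Between the sexes within a genotype few clustered genes differed. Of WT MEFs, 2 of 37 passed against 12.8% of all genes (6.26% higher and 6.56% lower in males), Hist1h3b higher in males by 1.38 (limma adjusted p = 0.00776) and Hist2h2aa1 lower by 1.82 (limma adjusted p = 0.0111). Of KO MEFs, 4 of 37 passed against 16.6% of all genes, and all 4 were higher in males (8.17% of all genes). These were Hist1h2ah (1.0, limma adjusted p = 0.0175), Hist3h2a (0.56, limma adjusted p = 0.0121), Hist1h1c (0.39, limma adjusted p = 0.0357) and Hist1h2bc (0.38, limma adjusted p = 0.0474). Of 14 alternatives the Hist1h2bc call held in 5, that of Hist1h1c in 7, that of Hist1h2ah in 11 and that of Hist3h2a in 13, with an adjusted p of at most 0.147, 0.11 and 0.0857 for the first 3. The call of Hist1h2bc was lost without any 1 of the KO libraries, that of Hist1h1c without female KO replicate 2 or 3 or male KO replicate 1 or 3, and that of Hist1h2ah without replicate 3 of either sex. With no filter these 3 were lost too. Hist3h2a, an H2A gene outside the large cluster, was at 7.19, 6.95 and 6.71 TPM in male KO and 4.22, 4.33 and 4.68 in female KO. In male WT it was at 7.49, 6.47 and 6.47 TPM and in female WT at 6.38, 5.63 and 5.76.

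The Hist2h2aa1 difference between WT sexes stood beside a different division of reads between copies. Hist2h2aa1 was at 0 in all 3 male WT libraries, while Hist2h2aa2, all of whose words occur in other genes including Hist2h2aa1, was at 10.6, 10.4 and 10.5 TPM there. In male KO the first was at 4.38, 0 and 6.77 TPM and the second at 0, 5.60 and 3.35. The sum of both was 10.6, 10.4 and 10.5 TPM in male WT against 4.38, 5.60 and 10.1 in male KO, 8.14, 6.06 and 9.83 in female WT and 6.50, 8.48 and 6.77 in female KO. The sum was higher in every male WT library than in any other library, by a log2 ratio of 0.39 over female WT, opposite in sign to the called difference of Hist2h2aa1.

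**Figure D5:**
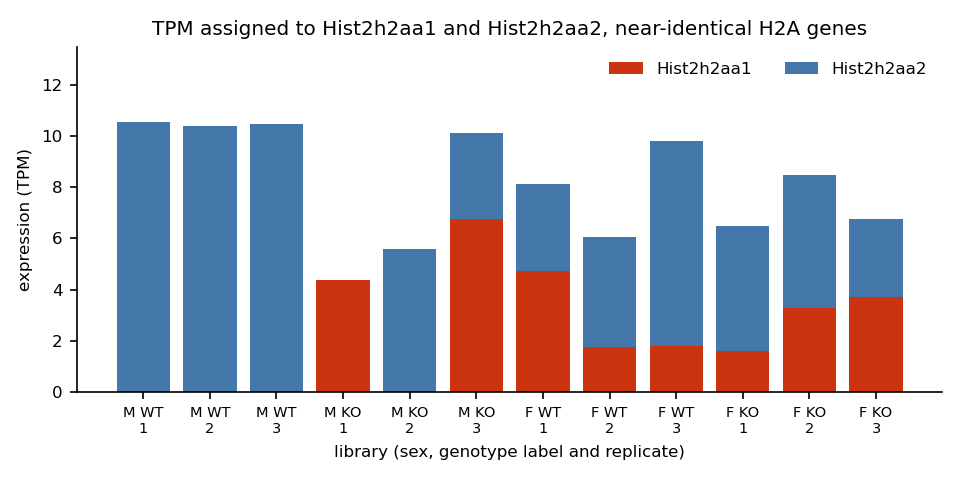
TPM assigned to Hist2h2aa1 (red) and Hist2h2aa2 (blue) in each library, stacked, with M and F for male and female. The division between the copies differs from library to library, and Hist2h2aa1 received 0 in all male WT libraries while the stacked height there was 10.4 to 10.6 TPM.

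The other genes among the 12 highest did not pass in either sex. The H2B gene Hist2h2bb was at 7.74, 17.2 and 5.74 TPM in male WT against 3.84, 5.33 and 2.68 in male KO, a difference of -1.08 (limma adjusted p = 0.0892), and in females of 0.37. All of its words are shared, also with the antisense RNA Gm20628. The H2B gene Hist1h2bk differed by 0.41 and -0.36 and the H2A gene Hist1h2ap by -0.22 and 0.33 in males and females. The H3 gene Hist1h3g differed by -0.17 and -0.76, and Hist3h2a by 0.03 and -0.36 (limma adjusted p = 0.0811 in females). The 30 genes under the filter summed to 17.3 ± 0.343 TPM for WT and 12.4 ± 1.33 for KO in males, and to 16.7 ± 2.96 for WT and 7.96 ± 1.20 for KO in females (SD, n = 3), with no overlap in either sex.

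Among genes that act on histone mRNA and on histones, the called differences given below reached at most 0.39 on the log2 scale. The counts of each list stand beside the shares of all genes tested. Of these, 10.7% were called higher and 10.9% lower in male KO, and 5.63% higher and 5.84% lower in female KO. Of 26 tested genes of histone mRNA transcription, 3′ end processing and decay, 2 fell in males and 1 in females. They were Lsm11, a subunit of the U7 particle that cleaves histone pre-mRNA, lower by 0.39 in male KO (limma adjusted p = 0.0273), Fip1l1, a subunit of the general cleavage and polyadenylation factor, lower by 0.26 in male KO (limma adjusted p = 0.0249), and Ncbp1, the large subunit of the cap-binding complex, lower by 0.15 in female KO (limma adjusted p = 0.0437). Slbp, chosen by its role and not by the rule for named genes, was at 102 to 109 TPM in male WT against 98.5 to 99.7 in male KO, and at 109 to 114 and 111 to 114 TPM in females, and passed in neither. The median difference of the list was -0.11 in males and -0.03 in females. Of 14 alternatives the calls of Lsm11 and Fip1l1 held in 8 each and that of Ncbp1 in 4 (adjusted p of at most 0.126).

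Of 29 S phase genes, 1 rose and 2 fell in males and 5 rose in females, with medians of 0.02 and 0.07. Over all genes 10.7% rose and 10.9% fell in males, and 5.63% rose in females. Mcm5, of the replicative helicase, was 0.15 higher in male KO (limma adjusted p = 0.0441), and Ccna2, cyclin A2, was 0.16 lower (limma adjusted p = 0.0191). In female KO Ccne1, cyclin E1, rose by 0.37 (limma adjusted p = 0.0131), Pola1, of the primase complex, by 0.31 (limma adjusted p = 0.0188), Rrm2, of ribonucleotide reductase, by 0.25 (limma adjusted p = 0.0153) and Mcm2 by 0.18 (limma adjusted p = 0.0128). Of 14 alternatives the male call of Mcm5 held in 5 and that of Ccna2 in 9, and the female calls of Ccne1 and Mcm2 held in 12, that of Rrm2 in 10 and that of Pola1 in 9 (adjusted p of at most 0.12). The S phase list summed to 2833 to 2893 TPM in male WT, 2816 to 2933 in male KO, 2874 to 2911 in female WT and 3010 to 3035 in female KO. The sums overlapped in males, and in females those of KO lay above those of WT.

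Of 20 histone chaperones 1 rose and 1 fell in males, and 1 rose and 2 fell in females. Chaf1b, of the factor that loads histones at replication forks, was 0.28 higher in male KO (limma adjusted p = 0.0136) and Supt16, of FACT, 0.16 lower (limma adjusted p = 0.0389). In female KO Daxx, an H3.3 chaperone, fell by 0.36 (limma adjusted p = 0.0197) and Supt6 by 0.18 (limma adjusted p = 0.036), while Atrx, the partner of Daxx, rose by 0.20 (limma adjusted p = 0.0331). Of 14 alternatives the call of Chaf1b held in 13, that of Daxx in 9, that of Supt16 in 7, that of Atrx in 5 and that of Supt6 in 4 (adjusted p of at most 0.121). Of the 11 histone genes outside the clusters, H3f3b, which encodes H3.3, fell by 0.14 in male KO (limma adjusted p = 0.0131) and by 0.15 in female KO (limma adjusted p = 0.0258). H2afz rose by 0.13 in male KO (limma adjusted p = 0.0179). In female KO H2afx fell by 0.23 (limma adjusted p = 0.00546) and H2afy by 0.16 (limma adjusted p = 0.0388), while H2afv rose by 0.31 (limma adjusted p = 0.0275) and H2afy2 by 0.24 (limma adjusted p = 0.0291). The H2afx call held in all 14 alternatives, those of H3f3b in 12 for males and 7 for females, those of H2afz and H2afy2 in 8, that of H2afv in 7 and that of H2afy in 4 (adjusted p of at most 0.12). H2afx is the member of that list whose mRNA also has the stem-loop of the clustered genes.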

How the data were processed

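RNA was poly(A)-enriched, primed with random hexamers and sequenced as paired ends, and per the labels and methods the authors quantified it with Salmon (1.10.1 in the processing notes, another version in the methods) against GRCm38. They deposited TPM per gene with Ensembl identifiers, and no column was left unused. Salmon's options and annotation release are not given in the sources used here. TPM are not counts and keep no depth, so no counting error is given.

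Of the identifiers 99.2% matched GENCODE M21. limma 3.58.1 in R 4.3.3 was run with a trended prior variance on log2(TPM + 1), over all 12504 genes that averaged 1 TPM or more, and calls were made at a Benjamini-Hochberg adjusted p under 0.05 with no fold threshold. This scale understates changes of low genes. Male, female, WT and KO comparisons used 6 libraries each and the interaction all 12. Where a comparison of groups is said not to overlap, all 3 libraries of one lie beyond all 3 of the other. The code was tested on simulated data. The genes, lists and tests were chosen with earlier results of these data known. Named are the 12 highest genes, those called in a KO and WT comparison or the interaction (up to 12 each), up to 6 called between sexes, and up to 6 per list. Shared 31-base words, counted on both strands, and stem-loops came from the GENCODE transcripts, and promoters from RefSeq. Alternatives were a pseudocount of 0.1, no filter, a filter at a mean of 5 TPM, scaling by median-of-ratios (factors 0.968 to 1.02), quantile normalization, no trend, all groups in one fit, a replicate block and leaving out each library.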

Additional observations from a re-analysis of the deposited data

Results flagged for a closer look

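The differences below differed between males and females by the interaction test (male minus female KO effect on the log2 scale, limma adjusted p under 0.05). Of the clustered genes these were Hist1h2ah at 1.35, which fell in female KO and differed by 0.06 in male KO without passing, and Hist1h2bc at 0.53, which fell in both sexes. Most words of Hist1h2ah are shared with other H2A genes, so its value also depends on the division of reads, whose part was not tested. Of the comparison lists, Ccne1 (-0.37) and Rrm2 (-0.22) among S phase genes, Chaf1b (0.25) and Nasp (-0.27) among chaperones, H2afx (0.33) and H2afy2 (-0.33) among histone genes outside the clusters, and Cpsf3 (-0.31) and Fip1l1 (-0.25) among 3′ end processing genes differed. Of the markers, Krt18 (-1.24), Col1a2 (-0.50), Sox2 (-4.08) and Tubb3 (0.53) did. The calls of Hist1h2ah, Rrm2, H2afx, Col1a2, Sox2, Tubb3 and Krt18 held in every alternative run for them. Of 19 alternatives, the call of Ccne1 held in 11, Nasp in 11, Chaf1b in 9, Cpsf3 in 8, H2afy2 in 8, Fip1l1 in 6 and Hist1h2bc in 6.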

How the results depend on the processing

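With any 1 library left out, the log2 ratio of the summed TPM of the clustered genes was -0.45 to -0.37 in males and -0.77 to -0.65 in females. It was 0.24 to 0.36 between KO sexes. As the libraries of these groups did not overlap, leaving out 1 could not change the sign, and only the size is informative. The sum under the other alternatives is not given here. Between WT sexes the ratio ranged from -0.027 to 0.038 and changed sign without male WT replicate 3 (-0.018) or female WT replicate 1 (-0.027). Counts of clustered genes called depended on the settings. In males 10 became 6 at a mean of at least 5 TPM, where the other 4 were not tested and all 6 remained, and 6 with no filter, of which 5 were among the 10 and Hist1h2ac was added. A left-out library gave 6 to 9. In females 7 became 4 with no filter, 3 of the 7 and Hist1h2bh, and 4 to 9 when a library was left out. Between WT sexes 2 became 1 with all groups in one fit and 1 at a mean of at least 5 TPM, where neither of the 2 was tested and Hist2h2aa2 was called, and between KO sexes 4 became 1 with no filter and 2 with no trend. For the interaction 2 became 1 with median-of-ratios scaling, with no filter and with quantile normalization. Left-out libraries gave 2 to 3 between WT sexes, 1 to 4 between KO sexes and 1 to 3 for the interaction. Over all genes they gave 1813 to 2318 in males, 774 to 835 in females, 1037 to 1243 between WT sexes, 1328 to 1824 between KO sexes and 1353 to 1559 for the interaction, against 2707, 1434, 1603, 2070 and 1629. Beyond which genes were tested, the causes were not tested. A left-out library leaves 2 against 3.

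Same-numbered libraries did not deviate together over all tested genes (r from -0.057 to 0.078), and the labels do not say what a shared number marks. A value over all genes cannot show a shared day or batch that touches few of them. With the replicate block 7, 4, 2, 2 and 3 clustered genes were called in the male, female, WT sex, KO sex and interaction tests, and 2366, 670, 1114, 1397 and 1518 of all genes. Of the calls in both sexes it lost that of Hist1h2bq in males and that of Hist1h4i in females.

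Among the highest genes that were not called, 5 of the differences changed sign when 1 library was left out, in 9 of the 78 such refits. In males Hist1h2ah ranged from -0.10 (without KO replicate 3) to 0.18, being -0.011 without WT replicate 3. Hist1h2ap ranged from -0.54 to 0.40 (without KO replicate 2), Hist1h3g from -0.47 to 0.20 (without WT replicate 3) and Hist3h2a from -0.00344 (without WT replicate 3) to 0.089, being -0.00325 without WT replicate 2. In females Hist1h3i ranged from -0.44 to 0.14 (without WT replicate 2), being 0.077 without KO replicate 1 and 0.10 without KO replicate 2. The depth of the libraries is unknown, so what it limits could not be given.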
